A study of Mus musculus with 26 samples.

Results

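Cdh2, Cdh3, Cdh11 and Cdh13 are 4 cadherin genes whose transcripts were followed in mouse cardiac stromal cells before and after coronary ligation. They were found by their symbols in every count table, 4 of 24421 gene symbols, and all 4 passed the filter on low counts in both fits used here. Cdh3, at 0 to 3 counts in each undamaged library, passed it through the ligated groups. The set was put together because Cdh2, Cdh3 and Cdh11 were seen to rise strongly after ligation in these same libraries, with no numerical threshold. The change of the 4 genes over time is therefore described here with no test, and tests are kept for the SCA-1 gate, which the choice did not use.

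The libraries are bulk mRNA-seq of cells sorted from dissociated hearts as CD45-, CD31- and positive for nuclear GFP driven from the Pdgfra locus, which labels fibroblasts and related mesenchymal cells. All mice carried that H2BEGFP reporter allele on a C57BL/6 background (B6.129S4-Pdgfratm11(EGFP)Sor/J), the undamaged controls included, and their age was not given in the sources used here. The sorted cells were divided by SCA-1, a surface protein encoded by Ly6a. Undamaged hearts gave 5 SCA-1 positive and 4 SCA-1 negative libraries. Hearts collected after ligation of the left anterior descending artery gave 6 libraries at 7 days (1 labelled positive, 1 labelled negative, and 4, called 1A, 1B, 4A and 4B, whose labels give no gate), 2 positive and 2 negative at 14 days, and 4 positive and 3 negative at 28 days, 26 libraries in all.

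Cadherins are calcium-dependent adhesion proteins that bind a cadherin on the neighbouring cell and, through catenins, hold the actin cytoskeleton to the junction. N-cadherin (Cdh2) is the classical cadherin of mesenchymal cells and of the intercalated disc, P-cadherin (Cdh3) is best known from epithelia, and cadherin-11 (Cdh11, OB-cadherin) is known from mesenchymal cells and from contractile fibroblasts. T-cadherin (Cdh13) lacks the transmembrane and catenin-binding parts, is held in the membrane by a lipid anchor, and is known from vascular cells as a receptor for adiponectin. In the GENCODE M21 annotation of GRCm38, Cdh2 (ENSMUSG00000024304.14) lies on chromosome 18 at 16588877 to 16809246, minus strand. The other 3 lie on chromosome 8: Cdh11 (ENSMUSG00000031673.6) at 102632095 to 102785642 on the minus strand, Cdh3 (ENSMUSG00000061048.8) at 106510891 to 106557297 on the plus strand, and Cdh13 (ENSMUSG00000031841.19) at 118283733 to 119324921 on the plus strand. All 4 are protein-coding, and no exon of another annotated gene overlaps theirs.

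Counts assigned to genes ran from 6.79 to 48.8 M per library (M, mega), so that 3 counts corresponded to 0.0575 to 0.424 CPM (counts scaled to a common library total with TMM factors). Pdgfra, the gene of the reporter locus, was at 342 to 810 CPM in all 26 libraries, Ptprc (CD45) at 0 to 2.05 CPM and Pecam1 (CD31) at 1.78 to 55.3 CPM. Ly6a was at 280 to 1280 CPM in the 12 libraries labelled positive and at 18.8 to 91.9 CPM in the 10 labelled negative. The titles give replicate codes in 2 styles, a letter code alone (5 undamaged and 3 day 28 libraries) or the same kind of code behind a prefix (4 libraries at each time), and the prefix is not explained. Xist exceeded 20 CPM in 6 libraries (both day 7 libraries with a labelled gate, 4A, 4B and both D9 libraries of day 14) and in none of the undamaged or day 28 libraries. Nothing in the labels tells whether libraries share an animal, and the p-values therefore measure the spread between libraries, which may be technical. In bulk samples, fewer cells of a type and less RNA per cell cannot be told apart.

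Cdh2 was low in undamaged hearts and highest at day 7. In the 9 undamaged libraries Cdh2 ranged from 4.53 to 11.2 CPM with a median of 6.72 CPM. At day 7 it was 117 CPM in the library labelled negative, 68.6 CPM in the one labelled positive, and 118, 134, 59.0 and 117 CPM in 1A, 1B, 4A and 4B. The lowest day 7 library, 4A, thus stood more than 5 times above the highest undamaged one, E1 positive. At day 14 Cdh2 was 41.4 CPM in D1 positive, 82.6 CPM in D1 negative, 18.6 CPM in D9 positive and 30.6 CPM in D9 negative, so D1 was above D9 in both gates. At day 28 the 7 libraries ranged from 16.9 to 41.4 CPM with a median of 28.6 CPM. Means were 6.63 ± 2.08 CPM (SD, n = 9) in undamaged hearts, 102 ± 30.7 CPM (SD, n = 6) at day 7, 43.3 ± 27.8 CPM (SD, n = 4) at day 14 and 29.2 ± 9.73 CPM (SD, n = 7) at day 28, ratios of 15.4, 6.53 and 4.4 to undamaged hearts. No library after ligation overlapped the undamaged range, and day 28 lay wholly below day 7, while day 14 overlapped both. The share of all genes whose times do not overlap was not counted, for Cdh2 or for the cadherins below.

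Cdh3 went from at or near 0 to a clear signal. Of the 9 undamaged libraries, 6 held no Cdh3 count, E1 positive and E3 positive held 1 count each and F3 negative held 3, which makes 5 counts in all. At day 7 Cdh3 was 50.2 CPM in the library labelled negative, 15.0 CPM in the one labelled positive, and 29.8, 66.0, 11.9 and 48.8 CPM in 1A, 1B, 4A and 4B. Every day 7 library was therefore far above the undamaged ones, although they differed among themselves by more than 5 times. At day 14 D1 negative was at 49.5 CPM and D1 positive at 14.5 CPM, whereas D9 negative was at 7.36 CPM and D9 positive at 2.26 CPM. At day 28 the 7 libraries ranged from 0.566 CPM (4 counts, E2 positive) to 5.06 CPM. With all libraries of a time summed, the normalised count ratio to undamaged hearts was 1110 at day 7 (exact 95% interval 477 to 3430), 394 at day 14 (169 to 1220) and 101 at day 28 (42.9 to 314). These intervals cover counting error only and take the few undamaged counts at face value. Mean levels were 36.9 ± 21.6 CPM (SD, n = 6) at day 7, 18.4 ± 21.3 CPM (SD, n = 4) at day 14 and 3.03 ± 1.51 CPM (SD, n = 7) at day 28. The day 14 mean rested on D1 negative, without which it was 8.04 CPM.

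Cdh11 was already expressed in undamaged hearts and had its highest mean at day 14, whereas those of Cdh2 and Cdh3 were at day 7. Undamaged libraries ranged from 6.31 to 46.6 CPM, with a median of 18.6 CPM. At day 7 Cdh11 was 161 CPM in the library labelled negative, 103 CPM in the one labelled positive, and 84.4, 119, 97.2 and 139 CPM in 1A, 1B, 4A and 4B. At day 14 it was 194 and 260 CPM in the positive and negative library of D1, and 113 and 122 CPM in those of D9. The day 7 and day 14 ranges overlapped, with both D9 libraries inside the day 7 range and both D1 libraries above it. At day 28 the 7 libraries ranged from 24.01 to 65.4 CPM with a median of 44.3 CPM, which overlapped the undamaged range and lay below every day 7 and day 14 library. Means were 19.6 ± 13.2 CPM (SD, n = 9) in undamaged hearts, 117 ± 28.5 CPM (SD, n = 6) at day 7, 172 ± 68.6 CPM (SD, n = 4) at day 14 and 45.3 ± 13.6 CPM (SD, n = 7) at day 28, ratios of 5.98, 8.77 and 2.31. Taken by gate, the ratio at day 14 was 13.1 in positive and 6.47 in negative libraries. The day 28 ratio was 4.24 in positive and 1.34 in negative libraries. Tests of a change of the gate difference are given below.

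The undamaged level of Cdh11 differed with the style of the replicate code. The 4 prefixed libraries averaged 29.3 ± 13.1 CPM (SD, n = 4) and the 5 letter-coded ones 11.9 ± 7.08 CPM (SD, n = 5), a ratio of 2.47. The size of the Cdh11 change differed with it as well. Within prefixed libraries its log2 difference from undamaged hearts was 1.90 at day 7, 2.54 at day 14 and 0.50 at day 28, against 2.58 ± 0.33 (SE), 3.14 ± 0.36 (SE) and 1.21 ± 0.32 (SE) over all libraries. Within letter-coded libraries the day 28 difference was 2.06. What the code styles stand for is not given, and their part in the level of Cdh11 was not tested. For Cdh2 the same log2 differences were 4.12, 2.81 and 2.001 in prefixed libraries and 3.95 ± 0.28 (SE), 2.70 ± 0.29 (SE) and 2.14 ± 0.26 (SE) over all.

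Cdh13 went the other way and was lower at all 3 times after ligation. The 9 undamaged libraries ranged from 1.67 to 10.5 CPM with a median of 3.64 CPM. At day 7 Cdh13 was 1.88 CPM in the library labelled negative, 2.29 CPM in the one labelled positive, and 1.29, 2.92, 0.873 and 0.471 CPM in 1A, 1B, 4A and 4B. At day 14 it was 1.19 and 0.563 CPM in the positive and negative library of D1, and 1.30 and 1.15 CPM in those of D9. The 4 day 14 libraries lay below every undamaged library, while 3 of 6 day 7 libraries reached into the undamaged range. At day 28 the range was 0.273 CPM (4 counts, B6 negative) to 2.40 CPM. Means fell from 4.58 ± 2.72 CPM (SD, n = 9) to 1.62 ± 0.915 CPM (SD, n = 6) at day 7, 1.05 ± 0.333 CPM (SD, n = 4) at day 14 and 1.64 ± 0.811 CPM (SD, n = 7) at day 28. The fitted log2 differences were -1.49 ± 0.45 (SE), -2.11 ± 0.54 (SE) and -1.49 ± 0.43 (SE). A single library, F3 positive, set the top of the undamaged range, and without it they were -1.24, -1.85 and -1.24.

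**Figure D1:**
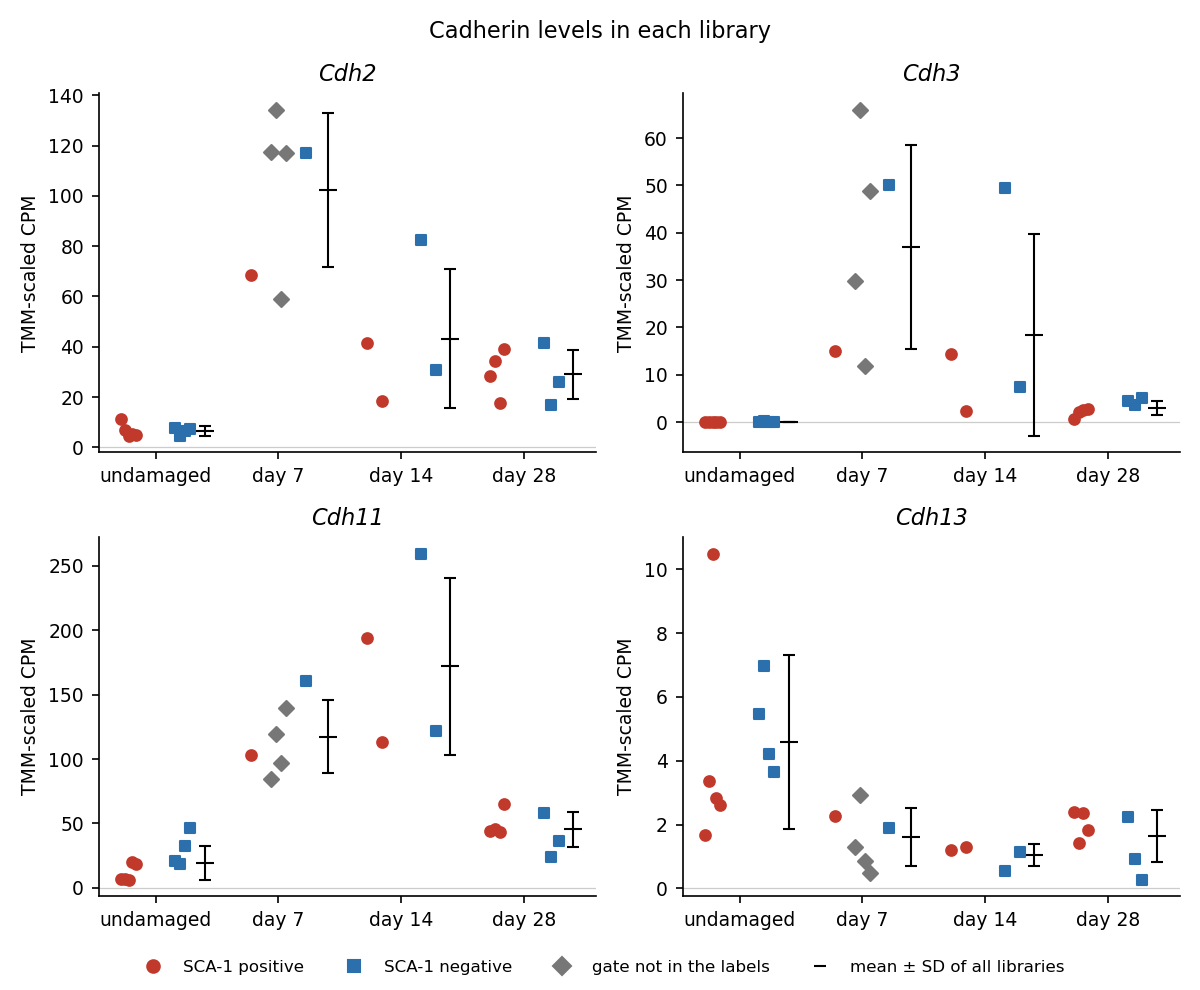
TMM-scaled CPM of Cdh2, Cdh3, Cdh11 and Cdh13 in each of 26 libraries by time, on a linear axis with its own scale for each gene. Red circles are SCA-1 positive, blue squares SCA-1 negative and grey diamonds the 4 day 7 libraries with no gate in their labels, and the black bar is the mean ± SD of all libraries of that time. Cdh2 and Cdh3 are highest at day 7, Cdh11 at day 14, and Cdh13 is highest in undamaged hearts.

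All 4 genes passed the edgeR threshold (adjusted p below 0.05 over all genes) at each time against undamaged hearts. Over all 13392 genes tested, 22.8% did so at day 7, 8.98% at day 14 and 5.39% at day 28. The genes were chosen on this contrast, and nothing is read from their calls or from the ranks that follow. Among the fitted differences of all 13392 genes, counted from the highest, Cdh2 ranked 120 at day 7, 285 at day 14 and 214 at day 28, and Cdh11 ranked 338, 222 and 492. Without the 6 libraries above 20 CPM of Xist, the log2 difference of Cdh2 was 4.25 at day 7 and 3.23 at day 14, that of Cdh11 was 2.38 and 3.54, and that of Cdh13 was -1.13 and -2.37. The mean of Cdh3 was then 47.8 CPM at day 7 and 32.0 CPM at day 14.

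Per kilobase of exon, which allows levels to be compared between genes, Cdh11 led in undamaged hearts at 2.20 ± 1.48 CPM per kb (SD, n = 9). Cdh2 followed at 0.821 ± 0.258 CPM per kb, then Cdh13 at 0.408 ± 0.242 and Cdh3 at 0.00782 ± 0.0152 CPM per kb (SD, n = 9). At day 7 Cdh11 was at 13.2 ± 3.2 CPM per kb, Cdh2 at 12.7 ± 3.8 and Cdh3 at 8.42 ± 4.92 (SD, n = 6). Cdh13 was at 0.144 ± 0.0814 CPM per kb. At day 14 Cdh11 stood apart at 19.3 ± 7.71 CPM per kb, above Cdh2 at 5.37 ± 3.45 and Cdh3 at 4.2 ± 4.87 (SD, n = 4), which overlapped. At day 28 Cdh11 was at 5.09 ± 1.53 and Cdh2 at 3.62 ± 1.21 CPM per kb, and Cdh3 had dropped to 0.692 ± 0.344 (SD, n = 7). All genes come from the same libraries, so overlap of these SDs does not tell whether their levels differed within libraries. Exon lengths are the union of annotated exons, not of the isoforms used in these cells.

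Cdh2 and Cdh3 varied together. Across the 26 libraries the Pearson r of their log2 CPM was 0.952, and in 20 gated libraries the r of their deviations from the group means was 0.47. Cdh11 followed Cdh2 (r = 0.817, and 0.379 for deviations) and Cdh3 (r = 0.841, and 0.191). Cdh13 ran against the other 3, with r between -0.558 and -0.657. These values share the time course and the library depth and are given as a description. The day 14 replicates showed the joint variation most plainly: D1 exceeded D9 by 6.4 times (positive) and 6.72 times (negative) for Cdh3, by 2.22 and 2.7 times for Cdh2, and by 1.71 and 2.13 times for Cdh11. Both D9 libraries, and neither D1 library, were above 20 CPM of Xist.

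Whether SCA-1 positive and negative cells differ in these cadherins was tested with edgeR in the 20 gated undamaged, day 14 and day 28 libraries. None of the 4 genes passed the threshold at any of the 3 times. The share of all 13812 genes that did was 3.1% in undamaged hearts, 0.0507% (7 genes) at day 14 and 0.594% at day 28, and with the replicate code as a block 60 genes were called at day 14. Cdh11 came nearest, with more transcript in the negative gate of undamaged hearts. There it was 6.81, 7.08, 6.31, 19.9 and 18.6 CPM in the positive libraries E1, E3, F3, A6 and B7, and 20.6, 18.5, 32.2 and 46.6 CPM in the negative libraries E5, F3, A6 and B7. The gates overlapped only across code styles: the letter-coded positive libraries were all below the letter-coded negative ones, and so were the prefixed. The log2 difference, positive minus negative, was -1.33 ± 0.38 (SE), with an edgeR p of 0.00231 and an adjusted p of 0.0629.

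Libraries of both gates that share a code were also treated as pairs, and the call for Cdh11 changed when they were. Whether a shared code is a shared animal is not given. With the code as a replicate block the undamaged difference of Cdh11 was -1.19 with an edgeR adjusted p of 0.00247, past the threshold. The negative library exceeded its positive partner by 2.94 times in F3, 1.62 times in A6 and 2.51 times in B7. The difference was also called by DESeq2 (-1.35, adjusted p 0.0116), in edgeR with no filter on low counts (adjusted p 0.0364) and in letter-coded libraries alone (-1.54, adjusted p 0.000716), but not in prefixed libraries alone (-1.04, adjusted p 0.25). Leaving out the positive library of A6 or of B7 brought the edgeR adjusted p to 0.0309 and 0.0339. Mural cell markers moved with the same gate. Their summed level was 265 to 559 CPM in the 4 negative libraries and 105 to 157 CPM in the 5 positive ones. Of 10 mural markers 3 were called, all lower in positive cells, where 1.45% of all genes were called lower. None of these markers was at 0 counts in either gate. Their part in the Cdh11 difference was not tested.

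At day 28 the Cdh11 order was turned round in the paired libraries. The negative library held 0.554 times the level of its positive partner in both B4 and B6, 24.01 against 43.4 CPM and 36.2 against 65.4 CPM. The unpaired libraries did not share that order, since E4 negative was at 58.0 CPM and E2 and F2 positive were at 44.3 and 46.0 CPM. Mural marker sums in these pairs were 273 CPM in B4 negative against 90.0 CPM in B4 positive, and 176 CPM in B6 negative against 244 CPM in B6 positive. The gate difference at day 28 was 0.33 ± 0.43 (SE) with an edgeR adjusted p of 0.773, and it was -0.40 in letter-coded libraries alone. The change of the gate difference from undamaged hearts to day 28 was 1.66 ± 0.58 (SE), with an edgeR p of 0.00974 and an adjusted p of 0.907, and 2.04 with an adjusted p of 0.101 in the blocked fit. No gene of 13812 passed the threshold for such a change at day 28 (0%) or at day 14 (0%) in edgeR, 719 and 202 genes having an unadjusted p below 0.05. DESeq2 called 4 and 2 genes. In the blocked fit without the A6 pair the Cdh11 change was 2.28 with an adjusted p of 0.0339.

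**Figure D2:**
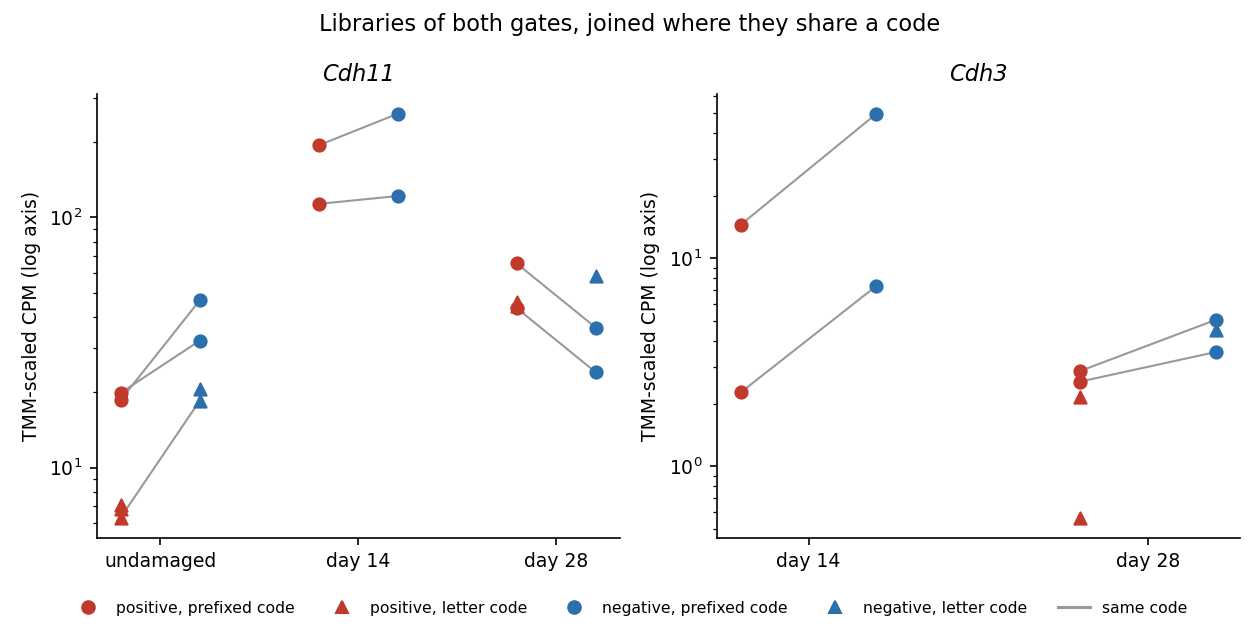
Cdh11 and Cdh3 in the gated libraries, on log axes of TMM-scaled CPM, with red for SCA-1 positive, blue for SCA-1 negative, circles for prefixed and triangles for letter-coded libraries, and grey lines between libraries of 1 code. From positive to negative, the 3 undamaged and 2 day 14 lines of Cdh11 rise and the 2 day 28 lines fall, and all 4 lines of Cdh3 (day 14 and day 28 only) rise.

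Cdh3 was higher in the negative library of every post-ligation pair, by 3.42 times in D1 and 3.26 times in D9 at day 14, and by 1.39 times in B4 and 1.76 times in B6 at day 28. At day 28 the 3 negative libraries were at 3.54 to 5.06 CPM and the 4 positive ones at 0.566 to 2.87 CPM. The share of all genes whose gates do not overlap at day 28 was not counted. The lowest value, in E2 positive, comes from the library with the fewest counts (6.79 M), where 55.8% of counts had no feature. The gate differences of Cdh3 did not pass the test. The log2 difference was -1.76 ± 0.91 (SE) at day 14 with an edgeR adjusted p of 1, and -1.08 ± 0.71 (SE) at day 28 with an adjusted p of 0.501. Averaged over both times, a test added after the values had been seen, it was -1.42 ± 0.58 (SE) with an edgeR adjusted p of 0.42, where 0.775% of all genes were called. Without D1 negative the day 14 estimate turned to 0.20. In undamaged hearts Cdh3 has too few counts for a gate comparison.

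At day 7 the labels give the gate of 1 library each, and no gate test was made. Cdh3 was at 50.2 CPM in the library labelled negative and at 15.0 CPM in the one labelled positive. The deposited tables of the other 4 carry gate tags in their names, positive for 1A and 4A and negative for 1B and 4B, which the labels do not repeat, so these libraries were put in neither gate. Ly6a was at 296 and 334 CPM in 1A and 4A, and at 35.9 and 31.7 CPM in 1B and 4B. Cdh3 was at 66.0 and 48.8 CPM in 1B and 4B, and at 29.8 and 11.9 CPM in 1A and 4A. Cdh11 was at 119 and 139 CPM in 1B and 4B, and at 84.4 and 97.2 CPM in 1A and 4A. Cdh2 was about level in 1A (117.5 CPM) and 4B (117.1 CPM), higher in 1B and lower in 4A.

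The gate difference of Cdh2 was -0.001 ± 0.36 (SE) on the log2 scale in undamaged hearts and 0.09 ± 0.39 (SE) at day 28. At day 14 it was lower in the positive library of both pairs, with a log2 difference of -0.91 ± 0.51 (SE) and an edgeR adjusted p of 1. Leaving out D1 negative reduced this to -0.01. Cdh13 differed by -0.28 ± 0.54 (SE) in undamaged hearts, 0.53 ± 0.82 (SE) at day 14 and 0.81 ± 0.66 (SE) at day 28, all short of the threshold, with edgeR adjusted p of 0.865, 1 and 0.602. With the replicate block the day 28 difference was 1.95 for Cdh13 (adjusted p 0.468) and -0.64 for Cdh3 (adjusted p 0.841). With standard errors of this size, gate differences of Cdh3 and Cdh13 could go uncalled even where they were not small. Cdh3 at day 14, fitted 3.38 times higher in the negative gate, was not called. The tests cannot exclude differences of that size.

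**Figure D3:**
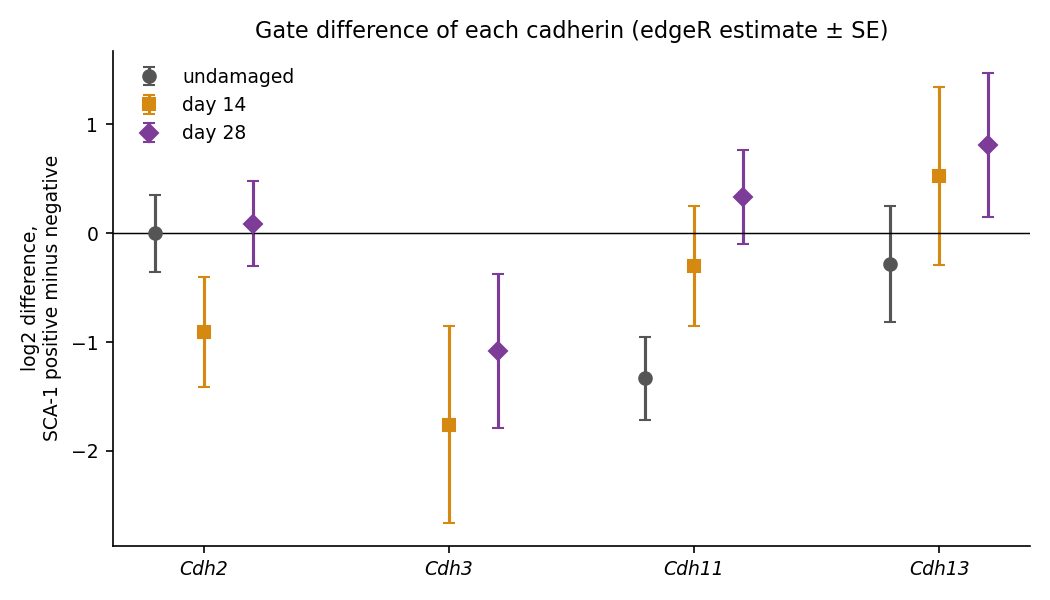
Fitted log2 difference, SCA-1 positive minus negative, for each cadherin in undamaged, day 14 and day 28 hearts, with bars of 1 SE from edgeR. Cdh11 in undamaged hearts is at -1.33 and Cdh3 is below 0 at day 14 and day 28; undamaged Cdh3 has too few counts and is not drawn.

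Markers of activated fibroblasts and of other cell types were summed in each library. Activated fibroblast markers (12 genes such as Postn and Cthrc1) went from 1770 to 6390 CPM in undamaged libraries to 14900 to 45100 CPM at day 7, 7870 to 21600 CPM at day 14 and 5660 to 14700 CPM at day 28, the order of times that the means of Cdh2 and Cdh3 followed. Of these 12 genes 10, 9 and 7 were called higher in edgeR and 0 lower, where 11.5%, 5.84% and 3.45% of all genes were called higher. Epicardial and mesothelial markers (9 of 10 listed genes were in the tables, such as Wt1 and Upk3b) were also higher: 0 to 8.99 CPM in undamaged libraries, 9.81 to 107 CPM at day 7, 27.6 to 234 CPM at day 14 and 11.9 to 122 CPM at day 28. These 9 genes were under 1 CPM on average in undamaged hearts and passed the low-count filter through the ligated groups, so no count of their calls is given. Their day 14 sums were 234 and 99.3 CPM in the negative and positive library of D1 against 77.4 and 27.6 CPM in D9, the same order as Cdh3. At day 7, 1A held 9.81 CPM of these markers with 29.8 CPM of Cdh3. Their part in the Cdh3 level was not tested.

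Markers of fibroblast identity (10 genes) summed to 73800 to 95100 CPM in undamaged libraries and 108000 to 135000 CPM at day 7. At that time 3 were called higher and 4 lower, against 11.5% and 11.2% of all genes. Endothelial markers moved in the direction of Cdh13. Their sum was 204 to 390 CPM in undamaged libraries, 112 to 185 CPM at day 7, 152 to 233 CPM at day 14 and 166 to 272 CPM at day 28. Of 10 endothelial genes, 10, 4 and 6 were called lower in edgeR and none higher. Over all genes, 11.2%, 3.14% and 1.94% were called lower at these times. Tek alone averaged 179 CPM in undamaged hearts and 108 CPM at day 7, a large part of the sum. F3 positive, the library with the most Cdh13, held 330 CPM of these markers, and the highest sum was 390 CPM in E5 negative. Cardiomyocyte markers, from cells rich in N-cadherin, ran from 12.9 to 88.2 CPM in undamaged libraries and 13.5 to 41.5 CPM at day 7, with 0 of 9 called higher at day 7. Leukocyte markers were at 11.1 to 38.0 CPM before ligation and 31.3 to 61.6 CPM at day 7. There 4 of 9 were called higher, against 11.5% of all genes. Schwann cell markers were at 41.6 to 69.9 and 29.6 to 38.3 CPM, with Gfra3 at 0 counts at both times and Sox10 at 0 counts in undamaged hearts. Mural cell markers were at 105 to 559 CPM and 128 to 272 CPM. The part of endothelial transcripts in the level of Cdh13, and of cardiomyocyte transcripts in that of Cdh2, was not tested.

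**Figure D4:**
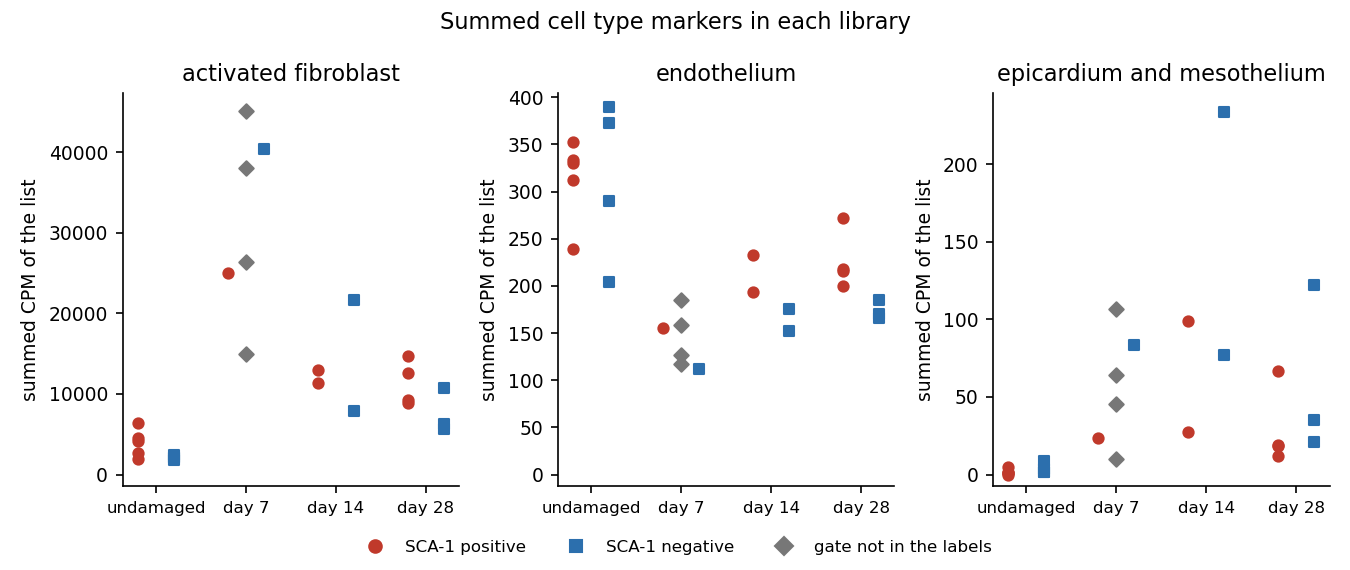
Summed CPM of activated fibroblast, endothelial and epicardial or mesothelial markers in each library by time, on linear axes, with colours and symbols for the gates. Activated fibroblast sums peak at day 7, endothelial sums are lower after ligation, and epicardial sums are highest in D1 negative at day 14 (234 CPM).

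The genes that work with cadherins were followed in 7 lists of 128 genes, of which 90 could be tested over time. At day 7, 24 were called higher and 9 lower (36.7% of those tested, against 22.8% of all genes), at day 14, 12 and 3 (16.7% against 8.98%), and at day 28, 11 and 5 (17.8% against 5.39%). The genes called higher include Dsg2 and, at day 14 and day 28, Ctnnd2. Dsg2 averaged 0.184 CPM and Ctnnd2 0.025 CPM in undamaged hearts, and both passed the low-count filter through the ligated groups. Without the 6 libraries above 20 CPM of Xist the called genes of the lists numbered 9, 8 and 10. That left 2 libraries at day 7 and 2 at day 14, where 880 and 568 of all genes were called. Of the genes named below, Adam12, Ncam1, Fat1, Ajuba, Vcl, Pvrl2 and Psenen also passed at day 7 in that smaller fit. The other genes called at day 7, Dsg2 and Twist2 left aside, did not. Leaving out D1 negative reduced the day 14 count to 9, and leaving out any of 6 libraries (undamaged E1 and E3 positive and E5 negative, day 28 F2 and B6 positive and B6 negative) reduced the day 28 count to 9 or 10. The time fit takes the 2 gates of a code as separate replicates. With the gates of each code summed to 1 library (6 undamaged, 2 at day 14 and 5 at day 28), the called genes numbered 34, 8 and 10 at the 3 times, the log2 differences of Cdh2 were 3.86, 2.62 and 2.09, and those of Cdh11 were 2.78, 3.33 and 1.41. All values below are log2 differences from undamaged hearts with edgeR adjusted p.

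Of 19 other classical and atypical cadherins, 5 were measured well enough to test and 0 were called higher at any of the 3 times. The list's median was -1.15 at day 7, -0.91 at day 14 and -1.59 at day 28, against -0.04, -0.03 and -0.001 over all genes. Cdh5 (VE-cadherin, the endothelial cadherin) fell at all 3 times, by 2.23 ± 0.40 (SE, adjusted p 0.000211), 1.91 ± 0.46 (SE, adjusted p 0.00733) and 2.07 ± 0.38 (SE, adjusted p 0.00105), from 29.6 ± 15.7 CPM (SD, n = 9) to 6.29 ± 1.21 CPM (SD, n = 6) at day 7. In letter-coded libraries alone the day 28 difference was -1.50 and not called, and with the gates of each code summed the day 14 difference was -1.85 with an adjusted p of 0.121. Cdh5 is itself on the endothelial marker list. Cdh19, a cadherin known from Schwann cells, fell at day 7 by 0.86 ± 0.27 (SE, adjusted p 0.0198), from 44.2 to 24.3 CPM, while at day 28 its 7 libraries ranged from 25.0 to 117 CPM with a median of 29.6 CPM. Per kilobase, Cdh19 was at 10.3, Cdh5 at 7.04 and Cdh11 at 2.20 CPM per kb in undamaged hearts. Cdh1 (E-cadherin), whose loss against a gain of Cdh2 defines the classical cadherin switch of epithelia, averaged 0.0744 CPM in undamaged hearts and 0.0747 CPM at day 7 and was too low to test.

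The catenins, which bind the cytoplasmic tail of Cdh2, Cdh3 and Cdh11, were abundant before ligation, and the 3 core members did not pass the test at day 7. Ctnnb1 (beta-catenin) was at 473 ± 22.9 CPM (SD, n = 9) in undamaged hearts and 533 ± 62.8 CPM (SD, n = 6) at day 7, a log2 difference of 0.17 ± 0.09 (SE, adjusted p 0.179). At day 28 it was called 0.31 ± 0.09 (SE, adjusted p 0.0377) higher, a call lost in 9 of 26 fits that left out 1 library in either code style alone, and with the gates summed (adjusted p 0.112). Ctnna1 (alpha-catenin) differed by 0.08 ± 0.12 (SE) and Ctnnd1 (p120-catenin) by -0.13 ± 0.10 (SE) at day 7, with adjusted p of 0.691 and 0.343. Ajuba, a LIM protein, rose at day 7 by 1.91 ± 0.27 (SE, adjusted p 7.62e-06), and Vcl (vinculin) by 0.89 ± 0.15 (SE, adjusted p 6.52e-05). Pvrl2 (nectin-2) rose by 2.01 ± 0.41 (SE, adjusted p 0.00066) at day 7 and 2.76 ± 0.44 (SE, adjusted p 9.7e-05) at day 14, the latter being 2.17 without D1 negative. In all, 7 of 21 tested genes of this list were called higher and 0 lower at day 7, where 11.5% of all genes were called higher and 11.2% lower.

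Among the proteases that cut or mature cadherins, 5 of 15 rose and 2 fell at day 7, against 11.5% and 11.2% of all genes. Adam12, a metalloprotease of activated mesenchymal cells, had the largest difference, 4.57 ± 0.34 (SE, adjusted p 1.77e-10) at day 7, 4.28 ± 0.36 (SE, adjusted p 7.07e-09) at day 14 and 1.73 ± 0.32 (SE, adjusted p 0.0014) at day 28. Adam12 went from 3.50 ± 1.97 CPM (SD, n = 9) to 82.6 ± 20.7 CPM (SD, n = 6) at day 7. Mmp14 (a membrane metalloprotease) rose by 1.06 ± 0.22 (SE, adjusted p 0.000845) and Furin (a proprotein convertase) by 0.77 ± 0.15 (SE, adjusted p 0.00066). Psenen, a gamma-secretase subunit, fell by 0.90 ± 0.18 (SE, adjusted p 0.00054), with -0.50 and an adjusted p of 0.0576 in prefixed libraries alone. Adam10, the main sheddase of N-cadherin, differed by 0.34 ± 0.19 (SE, adjusted p 0.197).

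Of 13 transcription factors of the cadherin switch, 3 were called higher and 1 lower at day 7, near the 22.8% called over all genes. Foxc2 rose by 0.96 ± 0.20 (SE, adjusted p 0.000841), Runx2 by 0.91 ± 0.23 (SE, adjusted p 0.00491) and Twist1 by 0.41 ± 0.13 (SE, adjusted p 0.0194), the last not called in prefixed libraries alone (0.24, adjusted p 0.317). Twist2 was called lower at day 7 (-0.76), from 25.95 to 15.31 CPM. Foxc1 was called lower at day 14 (-1.04) and Snai1 at day 28 (-0.66). Those calls were lost in 11 and 13 of 26 fits that left out 1 library. Zeb1, Zeb2 and Snai2 did not pass at any time, with day 7 differences of -0.28, -0.23 and 0.10. Among surface partners, 5 of 15 rose at day 7 and none fell, against 11.5% and 11.2% of all genes. Ncam1, a neural cell adhesion molecule, rose by 3.35 ± 0.37 (SE, adjusted p 1.99e-07), 3.68 ± 0.39 (SE, adjusted p 2.68e-07) and 2.57 ± 0.36 (SE, adjusted p 3.42e-05) at the 3 times, the day 14 difference being 2.86 without D1 negative, which held 188 CPM. Fgfr1, a receptor that N-cadherin binds, differed by -0.02 ± 0.14 (SE, adjusted p 0.944) at day 7. Lrp5, a Wnt co-receptor, was the single gene of the 94 tested between the gates that edgeR called, lower in positive cells of undamaged hearts by 0.80 ± 0.20 (SE, adjusted p 0.0332). That call was lost in 9 of 23 fits that left out a library or a code pair and in either code style alone, and the blocked fit called 7 of the 94 genes.

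Of 6 desmosomal genes tested, 1 was called higher and 3 lower at day 7, where 11.5% and 11.2% of all genes were. Dsg2, called higher, averaged 0.184 CPM in undamaged hearts and 1.99 CPM at day 7. It passed the low-count filter through the ligated groups, so nothing is read from its call. Jup (plakoglobin) fell by 0.54 ± 0.17 (SE, adjusted p 0.0243), from 337 to 232 CPM, and Dsp (desmoplakin) by 2.28 ± 0.63 (SE, adjusted p 0.01), from 10.9 to 2.22 CPM. Neither was called in prefixed libraries alone (Jup -0.46, adjusted p 0.164; Dsp -0.92, adjusted p 0.492). Fat1, a giant atypical cadherin, rose by 1.60 ± 0.21 (SE, adjusted p 3.73e-06), from 263 ± 60.9 CPM (SD, n = 9) to 797 ± 301 CPM (SD, n = 6), and was not called at day 14 (358 CPM) or day 28 (332 CPM). Of 15 protocadherins and large cadherins, 3 were called higher and 1 lower at day 7, also near the 22.8% over all genes.

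**Figure D5:**
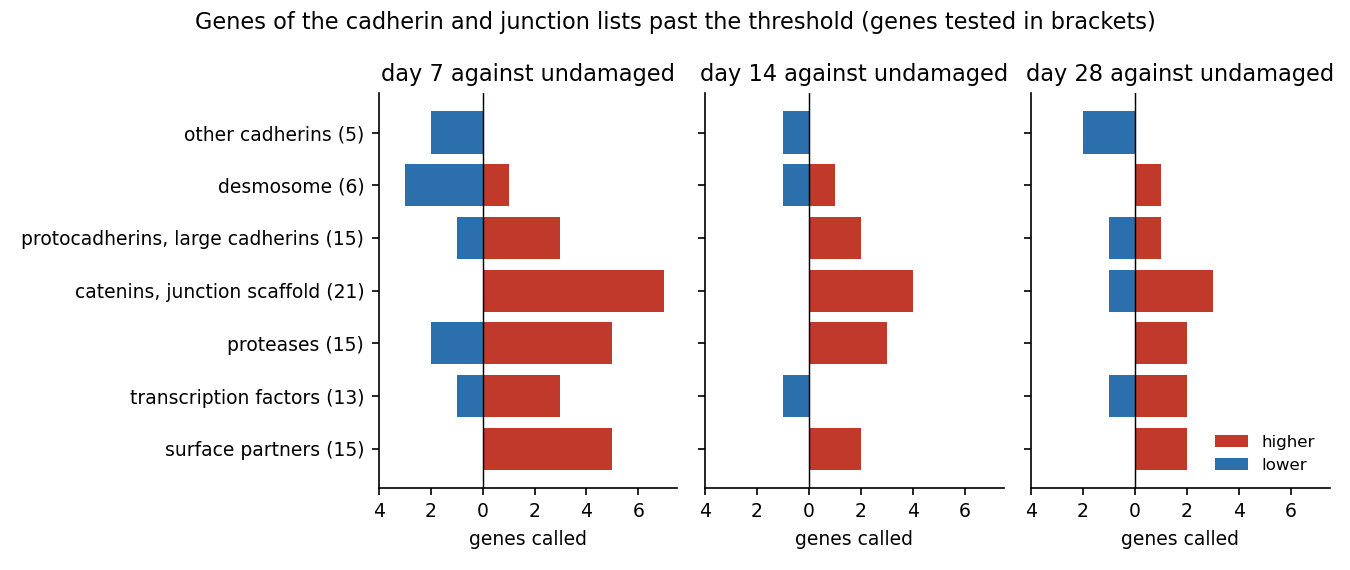
Number of genes in each cadherin and junction list called higher (red, to the right) or lower (blue, to the left) at day 7, day 14 and day 28 against undamaged hearts by edgeR, with the number tested in brackets. Catenins and scaffold have 7 called higher and 0 lower at day 7, and the other cadherins 0 higher and 2 lower.

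The genes whose log2 CPM over the 26 libraries was most like each cadherin were looked up among 9899 genes with a mean of at least 5 CPM, as a description. For Cdh2 they were Ddah1 (r = 0.975), Actn1 (0.965), Phldb2 (0.962), Col5a2 (0.957) and Cthrc1 (0.951). For Cdh3 they were Kif26b (0.969), Col1a2 (0.966), Cthrc1 (0.96), Ddah1 (0.957) and Col1a1 (0.957). Cthrc1, a secreted protein of activated fibroblasts, went from 1.39 ± 0.778 CPM (SD, n = 9) in undamaged hearts to 506 ± 223 CPM (SD, n = 6) at day 7 and 41.0 ± 18.8 CPM (SD, n = 7) at day 28. Kif26b, a kinesin family member, went from 0.253 ± 0.246 CPM (SD, n = 9) to 73.6 ± 29.1 CPM (SD, n = 6) and 7.94 ± 4.65 CPM (SD, n = 7). For Cdh11 they were Capn6 (0.938), Nrep (0.909), Palld (0.892), C1qtnf6 (0.89) and Ncam1 (0.889). The closest genes to Cdh13 were less close: Clic5 (0.779), Art3 (0.767), Pecam1 (0.766), Cd36 (0.745) and Cdh5 (0.725). Pecam1 and Cdh5 are endothelial genes. Pecam1 went from 38.4 ± 10.7 CPM (SD, n = 9) to 7.64 ± 2.81 CPM (SD, n = 6) at day 7.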

How the data were processed

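RNA from sorted mouse cardiac cells was sequenced as stranded, paired-end mRNA libraries. The values are whole-number read counts per gene symbol, deposited by the authors as 1 table per library. Per the submitters' processing notes bcl2fastq, TopHat, Bowtie2, STAR and Cufflinks were used with build mm10; the counting program, its strand setting and the annotation are not given in the sources used here. The 2 entries that name no gene were left out of library sizes; reads with no feature came to 5.53% to 55.8% of all counts of a table and ambiguous ones to 0.128% to 0.646%. No library pair held identical counts.

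Groups came from the titles. Counts were scaled by TMM, filtered with filterByExpr (minimum count 10) and fitted with edgeR 4.0.16 in R 4.3.3 (quasi-likelihood, two-sided, Benjamini-Hochberg threshold 0.05): 1 fit of 20 gated libraries in 6 groups, and 1 of 26 libraries in 4 time points, in which both gates of a code count as separate replicates. DESeq2 1.42.0 was the other tool. Log2 CPM used a prior count of 2. The code was tested on simulated data. Levels per kb used exon unions of GENCODE M21.

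The cadherins, lists and tests were chosen with earlier results of these data known. Named genes were the 4 cadherins, up to 4 genes per list and comparison with the smallest p, the 5 most alike genes per cadherin (mean at least 5 CPM; predicted models left out) and defining markers; Ctnna1, Ctnnd1, Ctnnb1 at day 7, Zeb1, Zeb2, Snai2, Adam10, Fgfr1, Cdh1 and Fat1 at day 14 and day 28 were added after their values were seen. In all, 7 pathway and 8 marker lists were used; Nectin and Afdn genes were matched by older symbols, and Dchs2 and Muc16 were not matched.

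Pairing by replicate code was checked on deviations from group means. In the 7 pairs r was 0.187 to 0.412, and the codes were treated as pairs. In undamaged and day 28 libraries, r between gates was 0.196 to 0.393 for different letter codes. For different prefixed codes it was 0.052 to 0.115. With 2 libraries per gate at day 14, r is forced to be equal in D1 and D9. The prefixed pairs A6, B7, B4 and B6 were at 0.187, 0.26, 0.34 and 0.286, above the range of different prefixed codes. The letter-coded pair F3, at 0.323, was within the range of different letter codes. For letter codes and at day 14 the check therefore cannot tell a pair from a shared code style. It cannot show for any code that an animal was shared. Alternatives were other size factors, no filter, DESeq2, a replicate block, each code style alone, leaving out libraries and, for time, summing the gates of each code.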

Additional observations from a re-analysis of the deposited data

Results flagged for a closer look

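In 32 groups of 4 to 10 libraries, the gap test for a library far from the others (Dixon's 95% limit) marked 5; chance marks about 1 in 20 groups. Cdh13 was at 10.49 CPM (213 counts) in F3 positive, above the other 4 undamaged positive libraries at 1.67 to 3.35 CPM. Cdh11 at day 28 was at 65.42 CPM in B6 positive, above the other positive libraries at 43.4 to 46.0 CPM. Cdh2 was at 11.18 CPM in the undamaged library E1 positive. Cdh3 was at 0.2006 CPM in F3 negative, both among the 4 negative and among all 9 undamaged libraries, which is 3 counts.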

How the results depend on the processing

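Cdh2, Cdh11 and Cdh13 kept their direction over time in the 26 fits that left out 1 library each. The mean of Cdh3 ranged from 8.036 to 23.77 CPM at day 14, lowest without D1 negative, and from 0.01344 to 0.0389 CPM in undamaged hearts, lowest without F3 negative. The day 28 difference of Cdh11 was 2.056 in letter-coded libraries alone. Depth limits Cdh3 before ligation and Cdh13 after it, where single libraries hold a few counts, and 2 libraries per gate limit day 14. Why values moved between settings was not tested.

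The undamaged gate difference of Cdh11 passed the threshold with DESeq2 (-1.352), with no filter on low counts (-1.337), with the replicate block (-1.187), with the block and RLE size factors (-1.204) and in letter-coded libraries alone (-1.541). Leaving out a library or an undamaged code pair moved it between -1.602 and -1.027. The block changed no other call of the 4 genes. In letter-coded libraries alone, differences short of the threshold turned sign: Cdh2 in undamaged hearts (0.27), and at day 28 Cdh2 (-0.423), Cdh11 (-0.395) and Cdh13 (-0.319), as did the change to day 28 of Cdh2 (-0.692) and Cdh13 (-0.065).

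Leaving out libraries moved these estimates across 0: Cdh2 from -0.413 to 0.109 in undamaged hearts, -0.174 to 0.471 at day 28, -0.75 to 0.038 averaged over day 14 and day 28, and -0.173 to 0.742 for the change to day 28; Cdh3 from -3.642 to 0.204 at day 14; Cdh11 from -0.749 to 0.353 at day 14 and -0.211 to 0.341 averaged; and Cdh13 from -0.961 to 0.066 in undamaged hearts. The change of Cdh11 to day 28 ranged from 1.356 to 2.281.

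The number of genes called between gates in undamaged hearts was 824 with DESeq2, 212 in prefixed libraries and 265 to 503 with libraries left out, lowest without E1, E3 or F3 positive (265, 268 and 273). At day 14 it was 33 with DESeq2, 12 unfiltered, 60 with the block, 56 with the block and RLE, and 0 to 93 with libraries left out, 0 without D1 negative or either D9 library. At day 28 it was 416 with DESeq2, 24 in letter-coded and 25 in prefixed libraries, and 18 to 172 with libraries left out, 18 without B4 negative. Changes of the gate difference to day 14 numbered 2 with DESeq2, 1 unfiltered, 2 with the block, 3 with the block and RLE, and 0 to 5 with libraries left out; to day 28 they numbered 4 with DESeq2 and 0 to 1. Over time, day 28 calls numbered 1100 with DESeq2, 1464 in letter-coded and 1514 in prefixed libraries, day 7 and day 14 calls 880 and 568 without the 6 libraries above 20 CPM of Xist, and day 14 calls 640 to 1382 with libraries left out, 640 without D1 negative. With the gates of each code summed, a check added after seeing the data, day 14 calls numbered 578.

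In the cadherin and junction lists, gate calls in undamaged hearts numbered 7 with DESeq2, the block or letter-coded libraries, 6 with the block and RLE, 0 in prefixed libraries and 0 to 3 with libraries left out. At day 28 they numbered 3 with DESeq2 and 0 to 1. Time calls were 9, 8 and 10 without the Xist libraries, 8 at day 14 and 10 at day 28 with the gates of each code summed, and 9 to 18 at day 14 and 9 to 16 at day 28 with libraries left out.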
